A study of Mus musculus with 2 samples.

Results

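The autophagy machinery and its cargo receptors were examined as a set of 38 genes out of 35275 in the RNAseq count table of AML12 cells. The genes were taken from a list of autophagy genes and matched by symbol, and all 38 were found. They comprise the initiation complex (5 genes), the lipid kinase complexes (7) and the WIPI, ATG2 and ATG9 genes, here called membrane supply (5). The others are the conjugation enzymes with the ATG4 proteases (10), the ATG8 family (5), soluble cargo receptors (5) and the fusion SNARE Stx17.

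AML12 is a non-transformed mouse hepatocyte line, derived from liver of a male CD-1 mouse aged 3 months that carried a human TGF-alpha transgene, and it is a single line. The control cells (labelled Young) received no treatment, and the senescent cells (labelled Old) had been exposed repeatedly to sublethal hydrogen peroxide (H2O2). Both were grown in DMEM:F12 with serum, and in the study's methods also with insulin, transferrin, selenium and dexamethasone. Each condition is represented by 1 library, made from a pool of RNA of 3 samples, so every value below compares the 2 libraries, not the conditions, without a replicate check or a p-value. The study examined energy sensing and autophagy proteins in these cells, and the question here is how the RNA of the autophagy genes differed between both libraries.

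Autophagy is the process in which a cell encloses cytoplasm, damaged organelles or protein aggregates in a double membrane, the autophagosome, and delivers it to lysosomes. The ULK kinase complex starts it, and a lipid kinase complex marks the site with phosphatidylinositol 3-phosphate. The WIPI proteins read this mark, and the ATG2 and ATG9 proteins bring lipid to the growing membrane. A pair of ubiquitin-like reactions then attaches ATG8 proteins (the LC3 and GABARAP families) to the membrane, where cargo receptors bind them. In liver, autophagy supplies amino acids and lipids during fasting, and its receptor p62 is itself degraded by the process.

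The control library held 28021941 counted reads and the senescent library 25738075. Reads were scaled with the TMM method, and each gene was given a log2 ratio of senescent over control with a 95% interval that covers counting error only. Of the hepatocyte markers, 7 of 8 had at least 10 reads and Apoa2 had 0 in the control library, and their summed level was 7753 CPM (reads per 1000000 TMM-scaled reads) in control cells and 9155 in senescent cells, most of it from Krt8 and Krt18. Single markers with reads were named after their values were seen. Albumin, the defining product of hepatocytes, had 32076 control and 2917 senescent reads. Ttr had 23146 and 10486, Apoa1 2026 and 197, and Serpina1a 102 and 32, all lower in the senescent library. In the other direction, Hnf4a, Krt8 and Krt18 had log2 ratios of 0.14, 0.51 and 0.82, and Apoa2 had 5 senescent reads. The 4 cholangiocyte markers summed to 1023 and 994 CPM, with Epcam at 0 in the control. Krt19 had 22885 control and 19177 senescent reads, Krt7 had 3248 and 1026, and Sox9 had 3602 and 4454. The 6 macrophage markers summed to 193 and 82.1 CPM, almost all of it Cd14, with Adgre1 and Clec4f at 0 in both libraries. The other macrophage markers had few reads and more of them in the senescent library, with 27 and 76 reads for Ptprc, 15 and 40 for Csf1r and 34 and 40 for Cd68. The 7 stellate cell and fibroblast markers summed to 0.928 and 0.202 CPM, with Col1a2, Col3a1 and Acta2 at 0 in both libraries, and the 4 endothelial markers to 0.172 and 0.444 CPM. The part of these marker differences in the results was not tested, and in such bulk RNA fewer cells of a type and less RNA per cell cannot be told apart.

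Most autophagy genes, 29 of 38, differed by less than 0.5 on the log2 scale between libraries, and none passed the log2 threshold of 1.5 that the study's methods use. Past a smaller step of 0.5, with an interval without 0, 6 of 38 genes were higher in the senescent library (Sqstm1, Atg2a, Wipi1, Wipi2, Tax1bp1 and Atg12) and 3 were lower (Atg4a, Ulk2 and Optn). Of all 14383 genes with at least 10 reads over both libraries, 14.8% were higher and 20.4% lower past 0.5, and 2.71% higher and 5.6% lower past 1.5. Since all 38 genes had at least 100 reads, with a lowest total of 122, the 11291 genes with as many reads are the closer background, and there 15.5% were higher and 20.1% lower past 0.5, and 1.25% higher and 3.5% lower past 1.5. The share of autophagy genes that were higher, 15.8%, was thus near that of all genes, and the share that were lower was 7.89%. Their median log2 ratio was 0.12, against 0.006 for all genes with at least 100 reads, and their range was -0.88 to 1.15.

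The intervals of 21 genes lay wholly above 0 and those of 7 wholly below, where 39.9% and 38.2% of all genes with at least 100 reads did so, and 34.0% and 34.6% of those with at least 10 reads. These counts depend on the scaling, since with total counts in place of TMM 15 intervals lay above 0 and 14 below, against 31.5% and 46.6% of all genes with at least 100 reads. The summed level of the 38 genes was 3258 CPM in control and 4325 CPM in senescent cells. Without Sqstm1 the sum was 2725 and 3144 CPM.

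**Figure D1:**
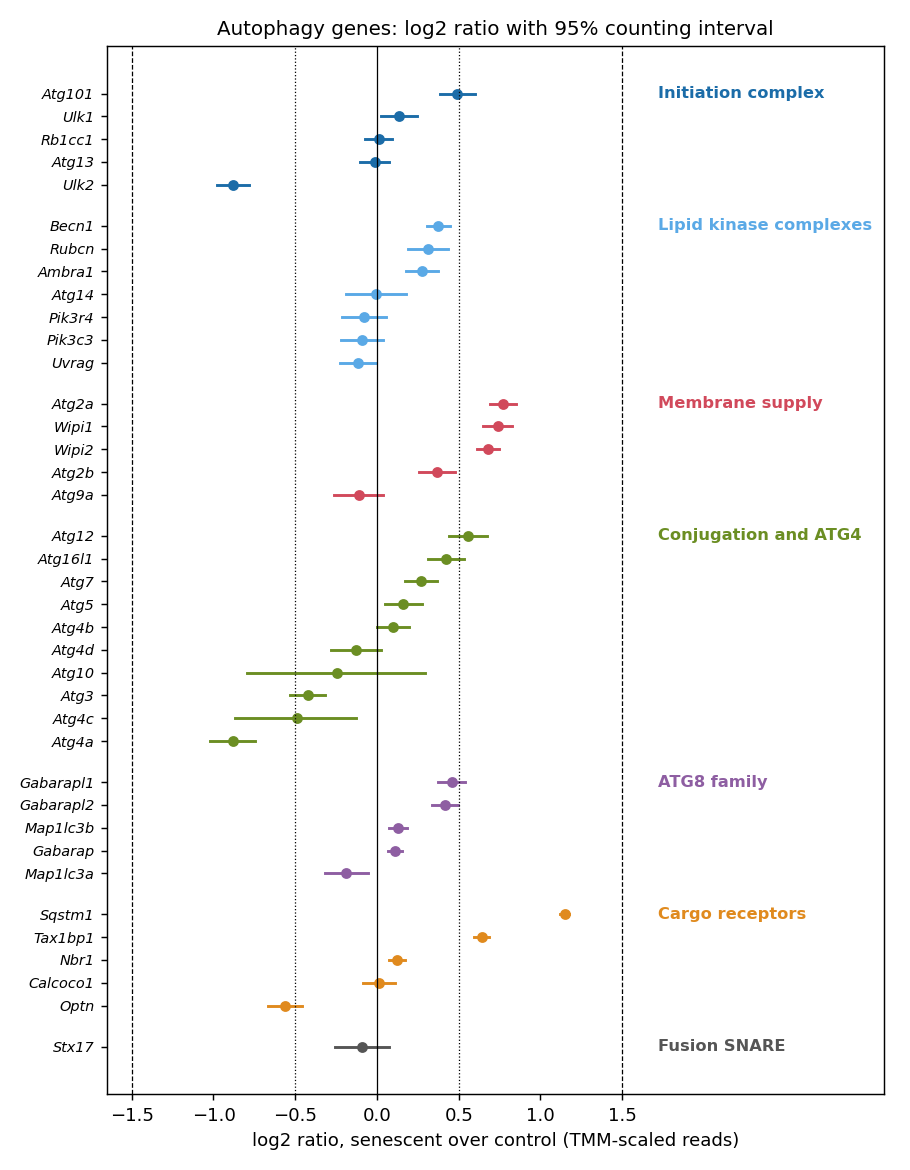
Log2 ratio of senescent over control (x axis, TMM-scaled reads) of each of the 38 autophagy genes, grouped by role. Points are ratios, bars are 95% counting intervals, dotted lines mark 0.5 and dashed lines 1.5 in either direction. Sqstm1 lies farthest right at 1.15, and Atg4a and Ulk2 lie farthest left at -0.88.

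The initiation, conjugation and receptor genes had medians of 0.01, -0.02 and 0.12, so that receptors were 0.11 above initiation and 0.14 above conjugation genes on the log2 scale. After a trend on GC content and length was removed, these differences were 0.0384 and 0.0791, and the median of all 38 genes was 0.0267. The differences are small beside the range inside each group, which was -0.88 to 0.49 for initiation, -0.88 to 0.56 for conjugation and -0.56 to 1.15 for the receptors. The lipid kinase genes had a median of -0.01 and the ATG8 family of 0.13. The group with the highest median was membrane supply, at 0.68, with 3 of 5 genes higher past 0.5 and none lower. Of all genes with at least 100 reads, 15.5% were higher and 20.1% lower. Wipi2, the middle gene of this group, was at 0.56 after the trend on GC content and length was removed. The groups are listed from general knowledge and hold few genes, and no test was made between them.

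**Figure D2:**
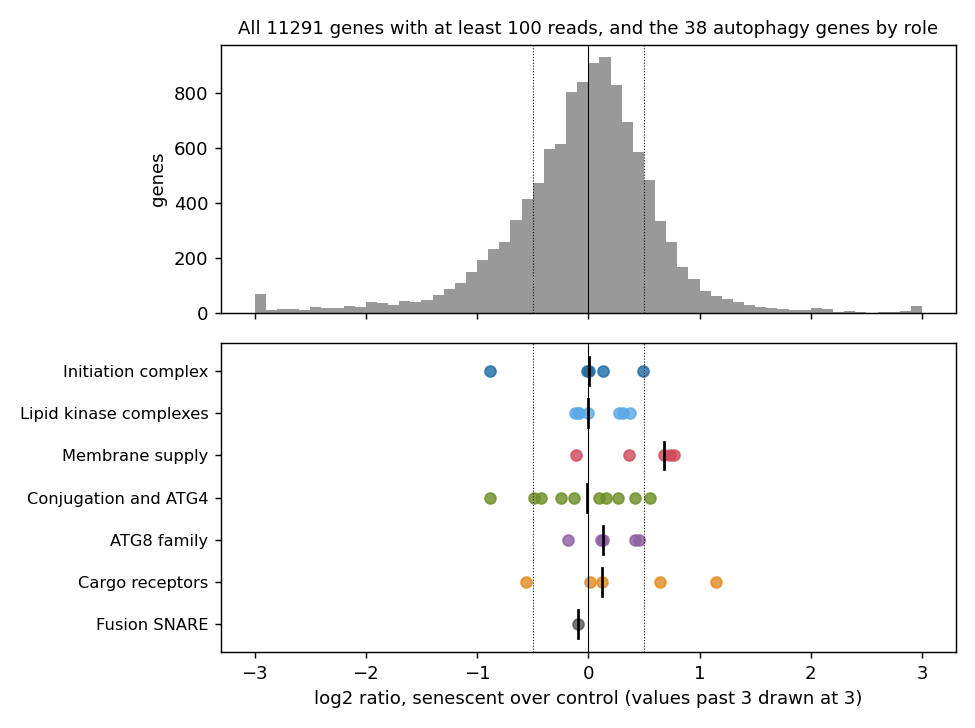
The upper panel counts all 11291 genes with at least 100 reads by their log2 ratio of senescent over control (x axis). The lower panel shows the 38 autophagy genes by role, with a black bar at each median. The membrane supply median lies at 0.68, and the other group medians lie between -0.09 and 0.13.

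Upstream sequences are shown for 4 genes. Sqstm1 had the highest ratio, Atg2a the highest of the membrane genes, and Ulk2 was the kinase gene that was lower. Atg3 was taken because its promoter holds a pair of the palindromic E-box CACGTG. This motif of the lysosomal regulator TFEB, shared with TFE3 and MITF, is called the TFEB box here. The sequences are RefSeq promoters on build GRCm38.p6 and run 5′ to 3′ toward the gene, without any base inside the GENCODE gene. Capitals mark any of the 8 motifs searched, which are spelled out after the results.
Sqstm1, chr11:50210828-50211070, minus strand: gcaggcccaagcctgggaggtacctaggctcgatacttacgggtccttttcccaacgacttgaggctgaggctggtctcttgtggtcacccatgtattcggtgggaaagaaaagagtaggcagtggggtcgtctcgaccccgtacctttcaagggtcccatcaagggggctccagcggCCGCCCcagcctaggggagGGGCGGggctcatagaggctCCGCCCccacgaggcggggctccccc
Atg2a, chr19:6241418-6241667, plus strand: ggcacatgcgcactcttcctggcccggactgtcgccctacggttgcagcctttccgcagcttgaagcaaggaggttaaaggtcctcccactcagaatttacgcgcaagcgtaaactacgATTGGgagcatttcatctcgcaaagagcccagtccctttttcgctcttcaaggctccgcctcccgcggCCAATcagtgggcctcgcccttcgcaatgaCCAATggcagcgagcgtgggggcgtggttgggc
Ulk2, chr11:61855093-61855342, minus strand: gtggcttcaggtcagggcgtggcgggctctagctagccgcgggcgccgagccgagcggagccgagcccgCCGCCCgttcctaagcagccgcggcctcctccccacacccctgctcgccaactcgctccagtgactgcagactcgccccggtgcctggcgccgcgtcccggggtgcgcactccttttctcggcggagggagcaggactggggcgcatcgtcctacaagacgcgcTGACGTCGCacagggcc
Atg3, chr16:45158579-45158784, plus strand: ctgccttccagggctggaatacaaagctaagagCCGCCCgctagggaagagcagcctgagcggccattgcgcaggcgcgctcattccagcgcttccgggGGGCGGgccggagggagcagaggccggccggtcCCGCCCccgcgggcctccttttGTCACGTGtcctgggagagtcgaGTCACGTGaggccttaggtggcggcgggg
The Sqstm1 stretch carries 3 GC boxes close to its start, the Atg2a stretch carries CCAAT boxes, and only the Atg3 stretch among these 4 holds the TFEB box.

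In the initiation complex the paralogous kinase genes differed in their ratios. Ulk2 (ENSMUSG00000004798, GRCm38 chromosome 11, 61775649 to 61855073) had 2807 reads in control and 1301 in senescent cells (log2 ratio -0.88, 95% interval -0.98 to -0.78). Ulk1, the better studied of these kinases that start autophagy, had 1384 and 1294 reads (0.13, interval 0.02 to 0.24). The ratio of Ulk1 to Ulk2, which no library scaling can change, thus went from 0.454 to 0.916 per kilobase of exon, a log2 change of 1.01 (0.87 to 1.16). This gene pair and the others below were chosen after the values were seen. The genes for the rest of the complex had ratios near or above 0. Atg101, whose product stabilises ATG13, had 1349 and 1618 reads (0.49, interval 0.39 to 0.60) and stood just under the step of 0.5. The scaffold gene Rb1cc1, which encodes FIP200, had 2478 and 2128 reads (0.01), and the adaptor gene Atg13 had 2211 and 1866 (-0.02). Both intervals held 0.

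The genes of the lipid kinase complexes all stayed within 0.5 of 0. Becn1, the core regulatory subunit Beclin 1, had the highest ratio, with 3035 and 3360 reads (0.38, interval 0.31 to 0.45). Its exons share 3104 bases with Cntd1 on the opposite strand, which had 104 and 102 reads. The catalytic subunit gene Pik3c3 had 1138 and 911 reads (-0.09) and Pik3r4, which encodes its partner kinase VPS15, had 1027 and 829 (-0.08), both with intervals that held 0. Becn1 was thus the only one of these 3 core subunit genes with an interval above 0. Atg14, which directs the complex to autophagosome sites, had 546 and 464 reads (-0.01, interval -0.19 to 0.18). Uvrag, which takes its place in the endosomal complex, had 1600 and 1259 reads (-0.12, interval -0.22 to -0.01). Stretches of Uvrag of 344 and 345 bases matched Klhl20 and Mettl6 at 95.6% and 95.1% identity, which had 779 and 1135 control reads, so its reads too may be shared. Rubcn, an inhibitor of the complex that holds UVRAG, had 1042 and 1103 reads (0.31, interval 0.19 to 0.44). The ratio of Rubcn to Uvrag was therefore higher in the senescent library, with a log2 change of 0.43 (0.27 to 0.59). Ambra1, a scaffold of Beclin 1, had 1738 and 1795 reads (0.28).

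Among the membrane supply genes, both WIPI genes and Atg2a were higher in the senescent library by similar amounts. Atg2a (ENSMUSG00000024773, chromosome 19 from 6241668 to 6262335), which encodes a lipid transfer protein, had 2177 reads in control and 3167 in senescent cells (log2 ratio 0.77, interval 0.69 to 0.85). Wipi1 (ENSMUSG00000041895, chromosome 11 from 109573331 to 109611967), a reader of phosphatidylinositol 3-phosphate, had 1688 and 2401 reads (0.74, interval 0.65 to 0.83). Its paralog Wipi2 (ENSMUSG00000029578, chromosome 5 from 142627698 to 142670588), which recruits ATG16L1, had 3096 and 4234 reads (0.68, interval 0.61 to 0.75). The ratio of Wipi1 to Wipi2 differed little between libraries, with a log2 change of 0.06 whose interval, -0.06 to 0.17, held 0. Atg2b had 1248 and 1373 reads (0.37, interval 0.26 to 0.48), so the ATG2 paralogs shifted toward Atg2a by 0.40 (0.27 to 0.54). A stretch of 536 bases of Atg2b matched D10Wsu102e at 95.7% identity, which had 2012 and 2736 reads, so some Atg2b reads may be shared. Atg9a, the gene for the lipid scramblase of the seed vesicles, had 820 and 647 reads and was alone in this group with a ratio below 0 (-0.11, interval -0.26 to 0.04).

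The conjugation genes spread in both directions. Atg12, which encodes the ubiquitin-like partner of ATG5, had 1093 control and 1370 senescent reads (0.56, interval 0.44 to 0.67). It was at 0.45 with total-count scaling and after a trend on GC content and length was removed, below the step of 0.5. Its partners in the complex that helps attach ATG8 proteins had lower ratios, with 1298 and 1483 reads for Atg16l1 (0.42) and 1311 and 1250 for Atg5 (0.16, interval 0.05 to 0.27).

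The genes for enzymes that pass ATG8 and ATG12 on lay on both sides of 0. Atg7, the shared activating enzyme, had 1648 and 1694 reads (0.27, interval 0.17 to 0.37). Atg3, which carries ATG8 proteins to their lipid, had 1749 and 1111 reads (-0.42, interval -0.53 to -0.32), and was at -0.53 with total-count scaling. Atg10, which carries ATG12 to ATG5, was the gene with the fewest reads, 71 and 51, and its interval of -0.80 to 0.29 allows a difference in either direction. The ratio of Atg12 to Atg3 changed by 0.98 (0.82 to 1.14) on the log2 scale. That interval does not cover a trend on GC content and length. With the trend removed, Atg12 was at 0.45 and Atg3 at -0.32, closer together than before.

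The ATG4 proteases, which trim ATG8 proteins and release them from the membrane, included Atg4a, which with Ulk2 had the lowest ratios of the set. Atg4a (ENSMUSG00000079418, chromosome X from 140956907 to 141164270) had 1415 reads in control and 654 in senescent cells (log2 ratio -0.88, interval -1.02 to -0.75). A near-identical gene, Atg4a-ps, matched 2115 bases at 99.3% identity and had 4 and 6 reads, so some reads may have been assigned to the wrong copy. Atg4b, the protease with the broadest activity, had 1861 and 1698 reads (0.10). Per kilobase of exon, Atg4a made up 58.0% of the summed ATG4 level in control and 43.4% in senescent cells, and Atg4b 24.5% and 36.2%. These shares depend on the length used, here 2661 bases of merged exon for Atg4a and 8278 for Atg4b. With their longest transcripts, of 2202 and 4186 bases, Atg4b would lie above Atg4a in the senescent library. The ratio of Atg4b to Atg4a changed by 0.98 (0.82 to 1.15). With the trend on GC content and length removed, Atg4b was at -0.02 and Atg4a at -0.77, closer together than before. Atg4c had only 165 and 100 reads (-0.49, interval -0.87 to -0.13), and Atg4d had 802 and 626 (-0.13). Exons of Atg4d share 1405 bases with Kri1 on the opposite strand, which had 1018 and 1379 reads, and the use of strand in counting is not given in the sources used here.

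The ATG8 genes differed less than 0.5 in either direction. The GABARAP paralogs Gabarapl1 and Gabarapl2 had the highest ratios. Gabarapl1 had 2193 control and 2567 senescent reads (0.46, interval 0.37 to 0.54), and Gabarapl2 had 2442 and 2780 (0.42, interval 0.34 to 0.50). Gabarap itself, the most abundant of the family per kilobase, had 8963 and 8252 reads (0.11, interval 0.07 to 0.15). Both paralogs thus gained on Gabarap, by 0.35 (0.25 to 0.44) and 0.31 (0.22 to 0.40) on the log2 scale. Map1lc3b, which encodes the widely used autophagosome marker LC3B, had 5444 and 5081 reads (0.13, interval 0.07 to 0.19). Map1lc3a had 1081 and 810 reads (-0.19, interval -0.32 to -0.05) and was alone in the family with an interval below 0. Reads of Map1lc3b may be shared with processed pseudogenes, of which Gm6055 matched 378 bases at 99.7% identity and had 13 and 15 reads.

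**Figure D3:**
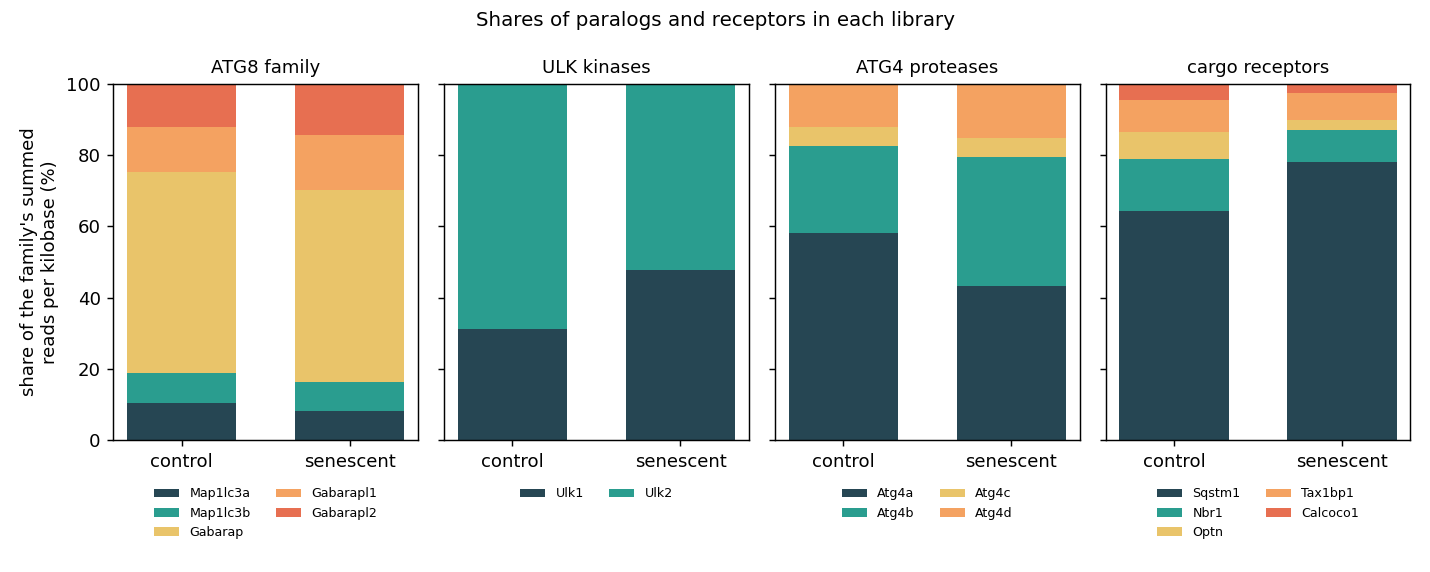
Share of each gene in the summed level per kilobase of exon of its family (y axis, percent), in the control and the senescent library. Ulk1 went from 31.2% to 47.8% of the ULK kinases and Sqstm1 from 64.2% to 78.2% of the receptors, while the ATG8 shares moved little, with Gabarap at 56.3% and 53.9%.

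The cargo receptors held the largest ratio of the set and also a gene in the opposite direction. Sqstm1 (ENSMUSG00000015837, chromosome 11 from 50199366 to 50210827) encodes p62, which binds ubiquitinated cargo and ATG8 proteins and is also a target of the oxidative stress regulator NRF2. It had 15497 control and 29298 senescent reads, or 533 and 1181 CPM, which is 2.22-fold higher in the senescent library (log2 ratio 1.15, interval 1.12 to 1.18). Its exons share 580 bases with Mrnip on the opposite strand, which had 153 and 62 reads. Tax1bp1 (ENSMUSG00000004535, chromosome 6 from 52713729 to 52766780), a receptor for ubiquitinated proteins, had 6493 and 8637 reads (0.64, interval 0.59 to 0.69). Nbr1, which works beside p62 on aggregates, had 7215 and 6703 reads (0.12, interval 0.08 to 0.17). The p62 gene therefore differed from its companion, and the Sqstm1 to Nbr1 ratio changed by 1.03 on the log2 scale (0.97 to 1.08). With the trend on GC content and length removed, Sqstm1 was at 1.20 and Nbr1 at 0.02, farther apart than before.

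Optn (ENSMUSG00000026672, chromosome 2 from 5020642 to 5064051) encodes optineurin, a receptor for bacteria and damaged mitochondria. It had 2037 reads in control and 1175 in senescent cells (log2 ratio -0.56, interval -0.67 to -0.46). Relative to Optn, Tax1bp1 changed by 1.21 (1.09 to 1.32), in a pair set up from a lower and a higher gene after the values were seen. Calcoco1, which encodes a receptor for endoplasmic reticulum and Golgi membrane, had 1899 and 1634 reads (0.01, interval -0.08 to 0.11). Without Sqstm1 the receptors summed to 607 CPM in control and 732 CPM in senescent cells. Stx17, the SNARE that joins autophagosomes to lysosomes, had 682 and 545 reads (-0.09, interval -0.26 to 0.07).

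On the scale of CPM per kilobase of exon, Gabarap and Sqstm1 stood well above the other autophagy genes in both libraries. Gabarap had the highest level in the control, at 167, ahead of Sqstm1 at 159. In the senescent library the order was turned, with Sqstm1 at 352 and Gabarap at 180. The next levels in the control were those of Gabarapl1, at 37.5, Gabarapl2 and Nbr1, both at 36.1. The lowest control levels were those of Atg10, at 1.42, and Atg4c, at 1.69, and both were at 1.20 in the senescent library. Relative to Map1lc3b, whose product p62 binds, the level of Sqstm1 went from 6.38 to 12.9.

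**Figure D4:**
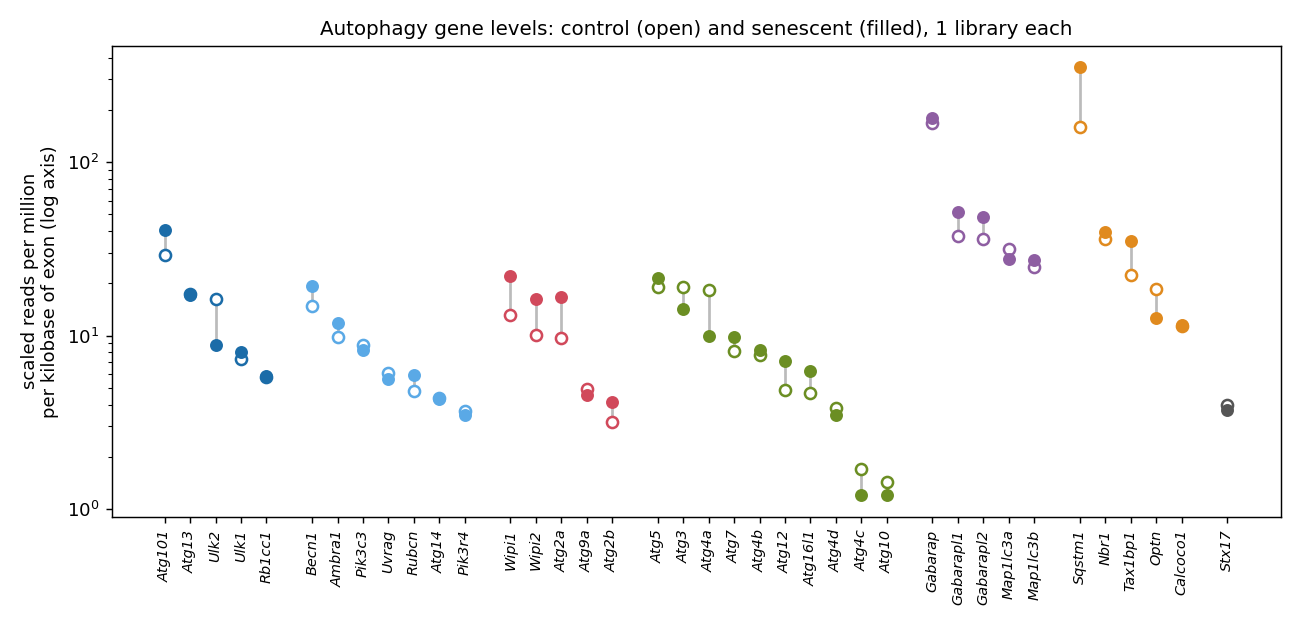
Level of each autophagy gene in CPM per kilobase of exon (y axis, log scale), with open points for the control and filled points for the senescent library, grouped by role and ordered by control level. Sqstm1 (159 and 352) and Gabarap (167 and 180) stand above all others, and Atg10 and Atg4c are lowest.

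Genes of the pathway outside the set were read from lists of general knowledge. The counts that follow can be read against the 14.8% higher and 20.4% lower past 0.5 among all genes with at least 10 reads. Of 14 other autophagosome genes, 3 were higher and 2 lower past 0.5, with a median of 0.20. Tecpr1, which encodes a tether at lysosomes, had 1336 control and 2336 senescent reads (1.04, interval 0.94 to 1.13). Wdr45, another WIPI family gene, had 1187 and 1614 reads (0.67), and Sh3glb1, a partner of Beclin 1, had 5085 and 6209 (0.52). Wdr45 thus lay on the same side as Wipi1 and Wipi2, which belong to its family. Wdr45b, also of this family, was named after its values were seen. It had 2044 and 2081 reads (0.26, interval 0.17 to 0.34) and did not pass 0.5. Atg16l2, a paralog of Atg16l1, had 403 and 162 reads (-1.08, interval -1.36 to -0.82). Rubcnl, named after its values were seen, had 33 and 2 reads and was at least 9.38-fold lower against a floor of 3 reads in the senescent library.

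The receptors for organelles and other cargo had a median of -0.19 over the 14 of 15 genes that had at least 10 reads. None was higher and 4 were lower past 0.5, and 2 of these were lower past 1.5, beside 20.4% and 5.6% of all genes. Bnip3, a mitophagy receptor and hypoxia target gene, had 3933 reads in control and 659 in senescent cells (log2 ratio -2.35, interval -2.47 to -2.23). Stbd1, a glycogen receptor named after its values were seen, had 78 and 8 reads (-2.92, interval -4.32 to -2.01). Both lay below every gene of the main set. Retreg1, a receptor for endoplasmic reticulum, had 2990 and 1493 reads (-0.77, interval -0.86 to -0.68), and the mitophagy receptor gene Fundc1 had 1919 and 1089 (-0.59, interval -0.70 to -0.48).

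Of 12 genes for fusion with lysosomes, 3 were higher and 1 lower past 0.5, beside 14.8% and 20.4% of all genes, with a median of 0.27. The higher genes only just passed the step, with ratios of 0.53 for the adaptor gene Plekhm1, 0.51 for the SNARE gene Ykt6 and 0.50 for Vps11, a subunit of the tethering complex. Vamp8, the lysosomal SNARE that pairs with STX17, had 7915 and 4568 reads (-0.56, interval -0.62 to -0.51). None of the 6 genes for subunits of AMPK, the energy sensor that acts on ULK1, passed 0.5, and their median was 0.03. Of 6 transcription factors of autophagy and lysosome genes, 5 had at least 10 reads, with a median of -0.27, and Tfec had 0 reads in both libraries. Tfeb, the regulator after which the TFEB box is named, had 491 reads in control and 159 in senescent cells (log2 ratio -1.39, interval -1.66 to -1.14). The other 4 did not pass 0.5 and were named after their values were seen, with ratios of 0.24 for Tfe3, -0.18 for Mitf, -0.27 for Foxo3 and -0.28 for Zkscan3.

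The promoters were searched on both strands over the 250 bases before the RefSeq start, which were given for 32 of the 38 genes. The TFEB box CACGTG stood in 4 of these 32 (Atg3, Atg5, Atg7 and Rubcn), or 12.5%, against 6.86% of all 27025 genes with a promoter and 9.67% of those with at least 10 reads here. Its longer form GTCACGTG, which contains CACGTG, stood in 2 (Atg3 and Atg7), against 2.11% and 3.76%. The boxes of Atg7 and Rubcn lie before internal RefSeq starts, 27999 and 9400 bases from the GENCODE gene start. In the Atg3 stretch printed above, these boxes lie from -96 to -89 and from -73 to -66, counted from the RefSeq start. The printed stretch leaves out the 44 bases next to that start. The genes with a box had log2 ratios on both sides of 0, from -0.42 for Atg3 to 0.31 for Rubcn.

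The antioxidant response core TGACNNNGC was found in 3 of 32 promoters (Atg13, Tax1bp1 and Ulk2), or 9.38%, against 11.5% of all promoters and 14.0% of those of genes with at least 10 reads. In the Ulk2 stretch it lies from -17 to -9. The letters were not in the Sqstm1 window of 250 bases, and sequence farther upstream was not searched. The AP-1 motif TGANTCA, the FOXO motif GTAAACA and the ATF4 motif TGATGNAAN were found in 0 of 32 promoters, where 7.82%, 3.54% and 3.89% of all promoters and 5.82%, 2.87% and 2.48% of those of genes with at least 10 reads held them. The GC box GGGCGG was in 21 (65.6%), against 35.4% of all promoters and 62.2% of those of genes with at least 10 reads, and CCAAT was in 9 (28.1%), against 37.5% and 40.6%. A match describes letters and not a bound site.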

How the data were processed

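RNAseq was available for control and senescent AML12 cells, 1 library each from RNA of 3 pooled samples, with poly(A) selection and random primers. The authors deposited raw counts of reads per Ensembl gene, not normalized. The submitters' processing notes name mm10, CASAVA, STAR, DESeq2 and edgeR, without a role or version. The counting tool, annotation and use of strand are not given in the sources used here, so reads of overlapping or near-identical genes cannot be assigned with certainty. The columns were matched to the samples by the initials of the titles (Young and Old).

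Symbols, positions and exons were taken from GENCODE M21 (GRCm38), which paired 34490 of 35275 genes (97.8%) with a symbol. Counts were scaled with TMM in edgeR 4.0.16 (R 4.3.3) (factors 1.04 in control and 0.964 in senescent cells). Log2 ratios used a prior count of 1, scaled to the library. Exact Clopper-Pearson intervals (95%) were computed for the fraction of each gene's reads that came from senescent cells. Intervals and the floor of 3 reads cover counting error only, because 1 library per condition holds no variation between replicates. PCR reads are not independent molecules, so even the counting error may be larger than these intervals show. Ratios of gene pairs carry a Wald interval from the 4 counts, and the 12 pairs were chosen after the values were seen. A call required a log2 ratio past 0.5 or 1.5, an interval without 0 and a total of at least 10 reads. With 1 library per condition the variation between replicates cannot be estimated, and neither edgeR's test nor DESeq2's was used. The study's methods paired the threshold of 1.5 with a cut on p-values, which was not applied here. Near-identical copies were sought with blastn 2.17.0 (at least 95% identity over 300 bases). Other steps used Python 3.11.15, numpy 2.4.6, pandas 2.3.3, scipy 1.17.1, statsmodels 0.14.6 and matplotlib 3.10.9, and the ratios were tested on simulated data. Promoters came from RefSeq (GRCm38.p6).

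The alternatives were total-count, DESeq2 1.42.0 and upper-quartile scaling, other read minimums and prior counts, widened intervals, removal of a trend on GC content and length, other thresholds and the longest transcript as length. Every gene of the set could be named. Of each further list up to 4 genes per direction past 0.5 with at least 100 reads were named, and markers were given as counts and sums, and exceptions are marked where they occur. The genes and lists were chosen with earlier results of these data known.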

Additional observations from a re-analysis of the deposited data

How the results depend on the processing

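No replicate could be left out, and no gene reversed its direction while called. No paired analysis was possible because each condition has 1 library and the labels give no replicate numbers. With total-count scaling, which moved the median of all genes by -0.11, the genes lower past 0.5 numbered 5 (Atg3 and Atg4c added), the median of the 38 genes was 0.00994, that of the initiation genes -0.10 and that of the receptors 0.0165, and Atg12 lost its call. The receptor median was 0.0219 after the trend on GC content and length was removed, where Atg12 lost its call and Atg101 and Gabarapl1 gained one. Upper-quartile scaling added Atg4c. The genes higher past the step numbered 13 at a threshold of 0.3 and 3 at 0.7, with 5 lower at 0.3, and 1 gene, Sqstm1, was higher at a threshold of 1 in place of 1.5. The shares of all genes called under these alternatives were not computed.

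Atg10 and Atg4c, with the fewest reads, had the widest counting intervals. If biological replicates varied with a coefficient of variation of 0.1, 10 intervals would lie above 0 and 4 below, and the calls past 0.5 would hold. Of all genes with at least 100 reads, 19.0% of intervals would then lie above 0 and 21.9% below. At a coefficient of 0.4, 0 genes would be higher and 0 lower past 0.5, and all 38 intervals would hold 0. Of all genes with at least 100 reads, 1.02% of intervals would still lie above 0 and 3.05% below. The actual variation between replicates is not known from 1 library each. With the longest transcript as length, 4 of the 5 genes with the highest control level were among the 5 again, and Tax1bp1 took the place of Gabarapl1. The level per kilobase of 1 gene relative to another also depends on the length. The length divided by cancels in its change between libraries. Ratios between libraries still moved for some genes when the trend on GC content and length was removed.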
